A study of Mus musculus with 2 samples.

Results

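The Mir99, Mir100 and Mir125 genes were examined in mouse limb at embryonic day 10.5, when the limb is a bud of mesenchyme under an ectoderm. The members are Mir99a, Mir99b, Mir100, Mir125a, Mir125b-1, Mir125b-2 and Gm25927, 7 of the 1973 microRNA (miRNA) gene rows, and they were chosen by gene name through the Ensembl identifier. Gm25927 is annotated on the strand opposite Mirlet7e, so its antisense reads were used and stand for Mirlet7e. The data are small-RNA sequencing counts from total RNA of the B6NCrl strain with no treatment or engineered allele named in the labels. There was 1 group of 2 biological replicates, each a pool of limbs from embryos of both sexes, 69 embryos in replicate 1 and 51 in replicate 2. Pooling hides the spread between embryos, and both pools carry the same strain donor label.

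These genes lie in 3 paralogous loci, each with a Mir99 or Mir100 gene, a let-7 gene and a Mir125 gene on the same strand. A miRNA guides the silencing of messenger RNAs mainly through its seed, bases 2 to 8 of the mature strand. The miR-99 and miR-100 miRNAs are known to target messenger RNAs of the mTOR growth pathway. The miR-125 miRNAs are the vertebrate relatives of lin-4, the developmental timing miRNA of the worm Caenorhabditis elegans, and are known to repress Lin28a, whose product blocks the maturation of let-7.

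The mature 5p strands are shown because the families are defined by their seeds, which are in capitals, and because the differences outside the seed decide which reads can be told apart. They were taken from RefSeq on GRCm38.p6, 5′ to 3′, and a 5p entry was found for each of the 6 genes and for Mirlet7e.
Mir99a 5p: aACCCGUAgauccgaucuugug
Mir100 5p: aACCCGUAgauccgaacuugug
Mir99b 5p: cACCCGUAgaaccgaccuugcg
Mir125a 5p: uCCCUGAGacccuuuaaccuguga
Mir125b-1 and Mir125b-2 5p: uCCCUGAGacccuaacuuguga
Mirlet7e 5p: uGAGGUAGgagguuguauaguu

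Mir99a, Mir99b and Mir100 share the seed ACCCGUA, which 3 of the 1738 mature miRNAs in the RefSeq table carry (0.173%), these 3 alone. Counted from 1 at the 5′ end, the Mir100 strand differs from that of Mir99a by A16U alone, so their first 15 bases are the same. The Mir100 strand differs from that of Mir99b by A1C, U11A, A16C and U21C. The Mir125 seed CCCUGAG is carried by 6 of the 1738 mature miRNAs (0.345%), from the 3 Mir125 genes and from Mir351, Mir6367 and Mir6394. The Mir125a strand shares its first 13 bases with the Mir125b strand, is 24 bases long against 22, and is 3 edits (substitutions, insertions or deletions) away from it.

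The mature 5p strand is the same for Mir125b-1 and Mir125b-2 over all 22 bases, so a read of it cannot be placed at either gene. From the layout of the tables, reads that matched several loci were counted at no gene, so the counts of Mir125b-1 and Mir125b-2 leave out their full-length shared 5p reads and understate miR-125b by an unknown amount. The tables do not separate the arms of a hairpin.

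On GRCm38 (mm10), the Mir99a locus holds Mir99a at chr16:77598936-77599000, Mirlet7c-1 at 0.721 kb from its start and Mir125b-2 at chr16:77646273-77646343, 47.3 kb away, all in introns of the long noncoding RNA gene Mir99ahg. The Mir99b locus is compact. Mir99b lies at chr17:17830188-17830257 in an intron of Spaca6, a gene of sperm-egg fusion, and Mir125a follows 0.624 kb away at chr17:17830812-17830879, where it overlaps an annotated Spaca6 exon. Gm25927, at chr17:17830343-17830459 on the minus strand, holds the reverse complement of the whole Mirlet7e hairpin. The Mir100 locus holds Mir100 at chr9:41531425-41531504, Mirlet7a-2 at 5.291 kb and Mir125b-1 at chr9:41581926-41582002, 50.5 kb away. Both miRNA members of that locus lie in introns of a long noncoding RNA gene that RefSeq names Mir100hg. Mir125b-1 also overlaps an exon of Gm28119, a noncoding gene annotated as sense intronic.

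Levels are sense counts per 1000000 sense counts in gene rows (CPM), of which there were 3581672 in replicate 1 and 3576482 in replicate 2. Multimapping reads, which were counted nowhere, were 32.3% and 31.2% of the mapped reads, and 32.3% and 18.6% of all reads were unmapped. A gene with a count of 0 may still have had up to 0.838 CPM (replicate 1) or 0.839 CPM (replicate 2), the level of 3 counts. Intervals below are exact 95% binomial intervals, which together with these floors cover counting error only, since PCR copies are not independent molecules. With 2 libraries an exact two-sided sign-flip test cannot go below p = 0.5, so no p-values are given and values stand as mean ± SD. Levels are reads per gene and are compared without length scaling, on the assumption that a read covers most or all of a mature strand. Read lengths were not examined, and any difference in how well 2 sequences are captured was not measured. In bulk tissue, fewer cells of a type and less RNA per cell cannot be told apart, and messenger RNA markers of limb cell types were not analysed here.

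All 7 members had 10 counts or more in each library, which is called detected here, against 17.6% of all gene rows. At least 1000 CPM in both libraries was reached by 5 of 7 members, against 4.21% of all gene rows. The 6 sense members held 4.92% of all sense counts in replicate 1 and 6.24% in replicate 2, a mean of 5.58% ± 0.930 (SD, n = 2). The Mir99 and Mir100 genes made up nearly all of this, with 4.50% and 5.80% of all sense counts. The Mir125 genes had 0.425% and 0.437%, and this share moved by less between the libraries than that of the Mir99 and Mir100 genes. Its parts moved in opposite directions, with Mir125a lower and both Mir125b genes higher in replicate 2, and it lacks the shared Mir125b 5p reads.

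Mir99b was the most abundant member by the mean, with 74141 counts (20700 CPM) in replicate 1 and 83440 (23330 CPM) in replicate 2, a mean of 22015 ± 1860 CPM and rank 9 of all gene rows. Mir99a had 60854 counts (16990 CPM) and 87364 counts (24427 CPM), a mean of 20709 ± 5259 CPM and rank 10. Mir99b was above Mir99a in replicate 1 and below it in replicate 2, so the order of this pair was not settled. Mir100 had 26155 counts (7302 CPM) and 36736 counts (10271 CPM), a mean of 8787 ± 2099 CPM and rank 22. Both libraries placed Mir100 below Mir99a and Mir99b, and its range did not overlap theirs.

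Among the Mir125 genes, Mir125a had 12184 counts (3402 CPM) in replicate 1 and 10079 (2818 CPM) in replicate 2, a mean of 3110 ± 413 CPM and rank 52. It was the member of highest level on the Mir125 side in both libraries, and its mature strand is encoded by no other gene of the RefSeq table. Mir125b-1 had 2464 counts (688 CPM) and 4629 counts (1294 CPM), a mean of 991 ± 429 CPM and rank 96. Mir125b-2 had 590 counts (165 CPM) and 936 counts (262 CPM), a mean of 213 ± 68.6 CPM and rank 153. The ranges of the 3 Mir125 genes did not overlap, but those of the Mir125b genes lack the shared 5p reads.

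**Figure D1:**
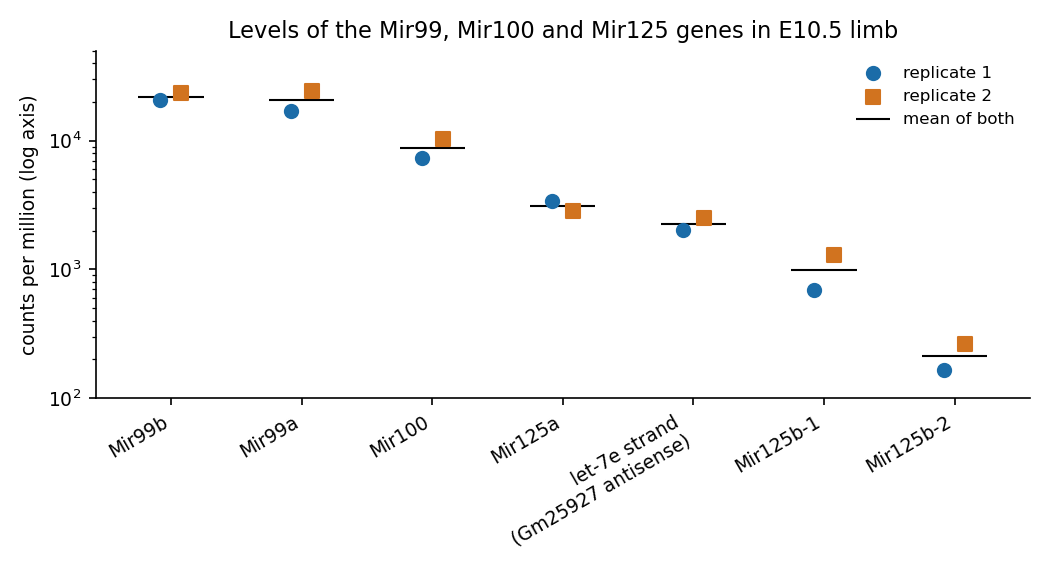
CPM (log axis) of each member in replicate 1 (circles) and replicate 2 (squares), with the mean of both as a line. Mir99b and Mir99a sit between 16990 and 24427 CPM, and Mir125b-2 is lowest at 165 and 262 CPM.

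The order by mean was Mir99b, Mir99a, Mir100, Mir125a, Gm25927 antisense, Mir125b-1 and Mir125b-2. Apart from Mir99b and Mir99a, no neighbours in this order overlapped between the libraries. The genes directly above and below a member in mean CPM were named as those of most similar level over the 2 libraries. Mir99b and Mir99a were next to each other, between Mir126a, the endothelial miRNA gene, at 25195 ± 2138 CPM and Mir130a at 20106 ± 1321 CPM. Mir100 lay between Mir652 at 8957 ± 1893 and Mir423 at 7975 ± 1178 CPM. By the sense total both of these were higher in replicate 1, while Mir100 was higher in replicate 2. The median log2 ratio of replicate 2 to replicate 1 was -0.27 over all genes with a mean count of 100 or more. Mir125a lay between Mir182 at 3339 ± 17.9 and Mir382 at 2919 ± 967 CPM. Gm25927 antisense lay between Mir183, of the sensory Mir183-Mir96-Mir182 cluster, at 2315 ± 556 and Mir361 at 2132 ± 116 CPM. Mir125b-1 lay between Mir134 at 1010 ± 28.7 and Mir34c at 986 ± 151 CPM, and Mir125b-2 between Mir505 at 215 ± 107 and Mir141 at 208 ± 35.5 CPM. None of these neighbours differed from its member in mean by more than the larger of their SDs, except Mir126a, which exceeded Mir99b by 3180 CPM.

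**Figure D2:**
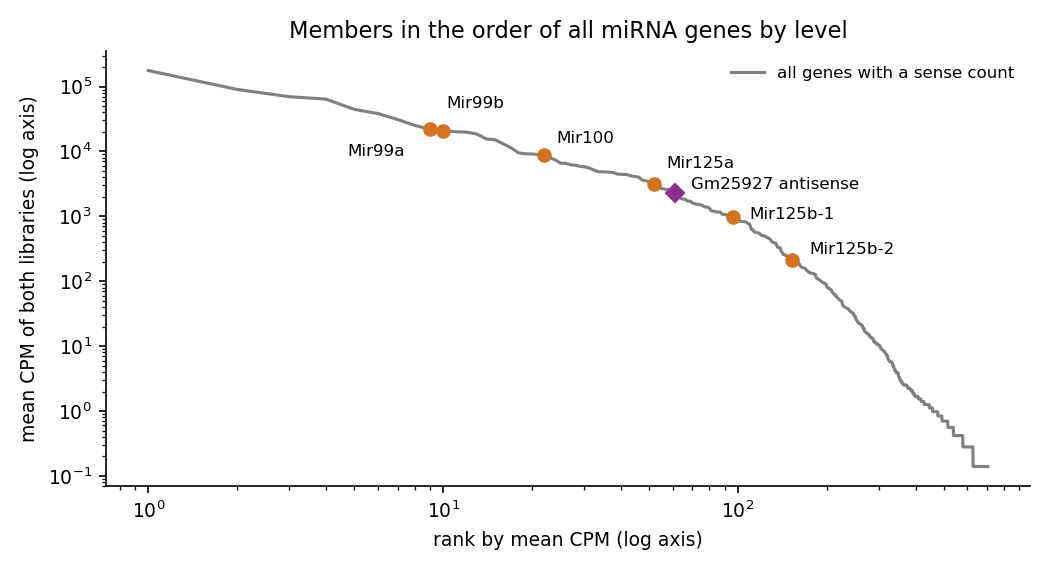
Mean CPM of all gene rows with a sense count against their rank (both log axes), with the 6 sense members as circles and Gm25927 antisense as a diamond. Mir99b and Mir99a are at ranks 9 and 10, Mir100 at 22, and the Mir125 genes from 52 to 153.

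The let-7 gene of each locus was set beside its neighbours. The row for Gm25927 had 0 sense counts in both libraries and 7301 antisense counts (2038 CPM) in replicate 1 and 8934 (2498 CPM) in replicate 2, a mean of 2268 ± 325 CPM. The reads thus lay on the Mirlet7e strand, and they made up 8.67% and 14.5% of all antisense counts in gene rows. The other 6 members had no antisense count, apart from 1 read at Mir125b-1 in replicate 2. The Gm25927 sequence, from the GENCODE M21 transcripts on GRCm38, is printed to show the opposite strand, with the stretch complementary to the let-7e 5p strand in capitals.
Gm25927: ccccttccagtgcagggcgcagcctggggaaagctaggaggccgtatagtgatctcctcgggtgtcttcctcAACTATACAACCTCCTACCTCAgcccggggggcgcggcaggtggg
Mirlet7c-1 of the Mir99a locus had 56 and 64 counts, 16.8 ± 1.60 CPM, and Mirlet7a-2 of the Mir100 locus had 45 and 45 counts, 12.6 ± 0.0129 CPM. The mature let-7c strand is encoded at another locus as well and the let-7a strand is known to be, so reads of these strands were lost as at the Mir125b genes. The Mirlet7e strand, encoded by 1 gene of the RefSeq table, is the let-7 member of these loci whose count does not have this limit.

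**Figure D3:**
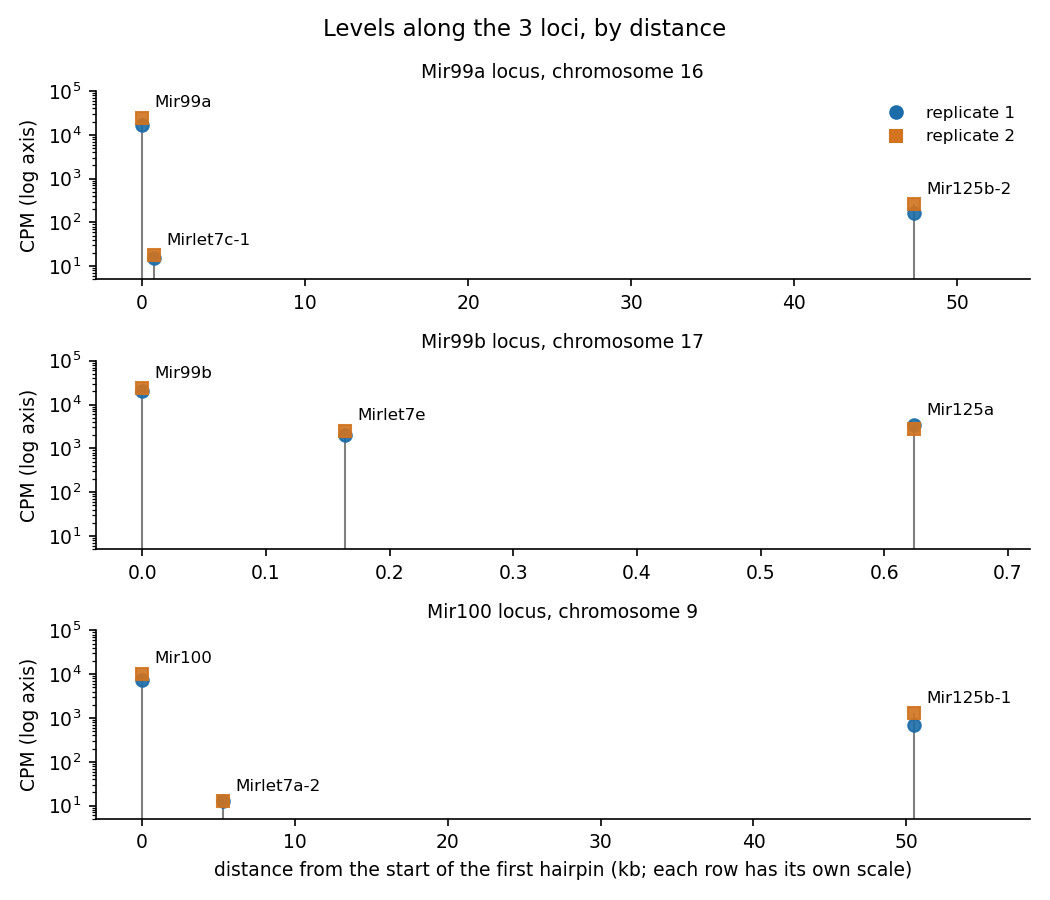
CPM (log axis) of the members and let-7 genes of each locus against distance from the start of the first hairpin in kb, with a scale of its own for each locus, replicate 1 as circles and replicate 2 as squares. By the reads placed at 1 gene, the Mir99 or Mir100 gene is highest in each locus. The counts of Mir125b-1, Mir125b-2, Mirlet7c-1 and Mirlet7a-2 lack the reads they share with other loci. Mirlet7e, read as Gm25927 antisense, stands at 2038 and 2498 CPM.

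Within every locus the Mir99 or Mir100 gene was above its Mir125 gene in both libraries, by the reads placed at 1 gene. Mir99b exceeded Mir125a 6.08-fold in replicate 1 and 8.28-fold in replicate 2, with log2 ratios of 2.61 (2.58 to 2.63) and 3.05 (3.02 to 3.08). The mature strands of Mir99b and Mir125a, both arms included, are each encoded by 1 gene of the RefSeq table, so no copy listed there takes reads from this ratio. Mir125a made up 14.1% and 10.8% of the counts of the pair.

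Mir100 exceeded Mir125b-1 10.6-fold and 7.93-fold, with log2 ratios of 3.41 (3.35 to 3.47) and 2.99 (2.94 to 3.03). Mir99a exceeded Mir125b-2 103-fold and 93.2-fold, with log2 ratios of 6.69 (6.57 to 6.81) and 6.54 (6.45 to 6.64). Both ratios would be lower with the shared 5p reads added to the Mir125b counts. The amount was not measured, so the order within these loci is that of the placed reads only. Over all 3 loci the log2 ratio of the Mir99 and Mir100 genes to the Mir125 genes was 3.57 ± 0.23, or 11.8-fold, with the same limit. With Mir99a and Mir100 summed against both Mir125b genes the log2 ratio was 4.66 ± 0.25.

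Mir125b-1 exceeded Mir125b-2 by 4.17-fold and 4.94-fold, with log2 ratios of 2.06 (1.93 to 2.19) and 2.30 (2.20 to 2.41). The reads behind this ratio are those that can be placed at 1 of these genes. The ratio of Mir125a to Mir125b-1 changed most between the libraries among the ratios within a family. Its log2 ratio was 2.31 (2.24 to 2.37) in replicate 1 and 1.12 (1.07 to 1.17) in replicate 2. The share of Mir125a among the Mir125 counts went with it, 80.0% in replicate 1 and 64.4% in replicate 2. The counts of both Mir125b genes lack the shared 5p reads, so this share would be lower with them added. The amount was not measured.

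The loci were then compared by the sum of their Mir99 or Mir100 gene and their Mir125 gene. Of the counts of the 6 sense members, the Mir99b locus held 48.9% and 41.9%, the Mir99a locus 34.8% and 39.6%, and the Mir100 locus 16.2% and 18.5%. The Mir99b locus exceeded the Mir100 locus 3.02-fold and 2.26-fold, with a log2 ratio of 1.38 ± 0.29. Its log2 ratio to the Mir99a locus was 0.49 (0.48 to 0.51) in replicate 1 and 0.08 (0.07 to 0.10) in replicate 2, a mean of 0.29 ± 0.29, so the difference was no larger than the spread between the libraries. For the genes alone, the log2 ratio of Mir99b to Mir100 was 1.34 ± 0.23. That of Mir99b to Mir99a was 0.28 in replicate 1 and -0.07 in replicate 2.

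By the placed reads, the Mir99a and Mir100 loci kept nearly the same ratio in the 2 libraries. Both sums lack the shared Mir125b 5p reads. The Mir99a locus exceeded the Mir100 locus 2.15-fold and 2.13-fold, with log2 ratios of 1.10 (1.08 to 1.12) and 1.09 (1.08 to 1.11). The Mir99a and Mir100 genes alone had log2 ratios of 1.22 (1.20 to 1.24) and 1.25 (1.23 to 1.27), a mean of 1.23 ± 0.02. Mir99a and Mir100 differ by 1 base of the 5p strand, so a read of the shared first 15 bases alone cannot be assigned by this strand.

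**Figure D4:**
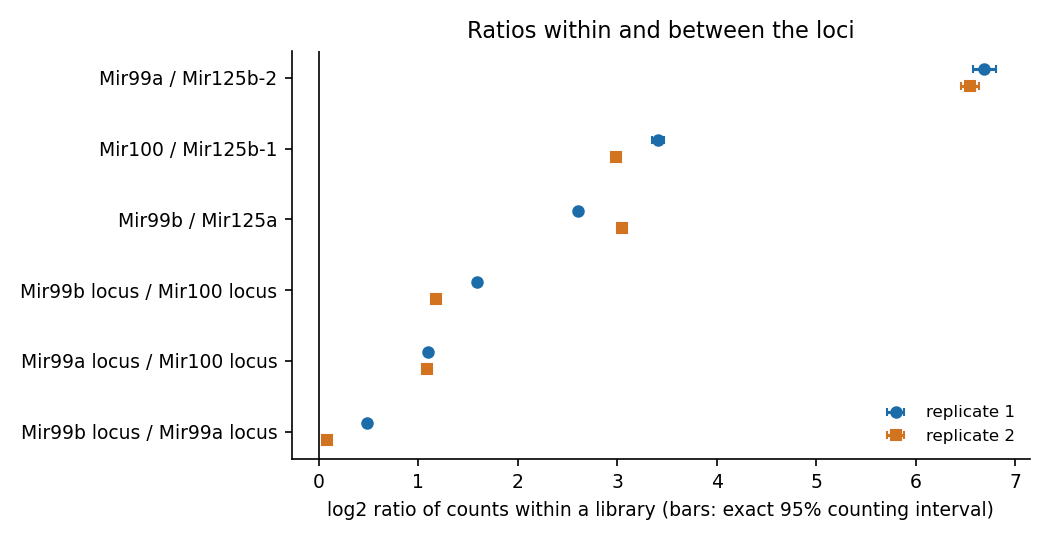
Log2 ratio of counts within each library, replicate 1 as circles and replicate 2 as squares, with exact 95% counting intervals as bars that are often narrower than the symbols. The Mir99a and Mir100 loci have ratios of 1.10 and 1.09, while the other ratios shown differ more between the libraries.

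Between the libraries, 6 of 7 members were higher in replicate 2 by the sense total, against 33.2% of the 250 genes whose mean count was 100 or more. The median log2 ratio of replicate 2 to replicate 1 was 0.49 over the members and -0.27 over those 250 genes. Mir125b-1 had the largest log2 ratio at 0.91 (0.84 to 0.98), followed by Mir125b-2 at 0.67 (0.52 to 0.82), Mir99a at 0.52 (0.51 to 0.54) and Mir100 at 0.49 (0.47 to 0.52). These are the members of the Mir99a and Mir100 loci. Each had a ratio above those of Gm25927 antisense at 0.29 (0.25 to 0.34) and Mir99b at 0.17 (0.16 to 0.19). The let-7 genes of the same loci, Mirlet7c-1 and Mirlet7a-2, are not members. Their ratios were 0.19 (-0.35 to 0.74) and 0.00 (-0.63 to 0.63), both below that of Gm25927 antisense. Their counts were low and both wide intervals hold 0.29. Whether these let-7 genes moved with the members of their loci was thus not settled. Mir125a alone was lower in replicate 2, at -0.27 (-0.31 to -0.23), at the median of all genes. With edgeR's TMM factors or DESeq2's size factors, which shift the median of all genes to 0.02 and 0.01, Mir125a was at 0.018 and 0.0045 and the ratios of all 7 members were above 0, against 51.6% and 50.8% of the 250 genes.

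No member passed a 2-fold ratio between the libraries by the sense total, against 10.8% of the 250 genes. By the reads placed at 1 gene, Mir125b-1 passed it with TMM factors at a log2 ratio of 1.20, against 8.00% of the genes. By the sense total the counting intervals of all 7 members left out 0, as did those of 84.8% of the 250 genes. With TMM factors the interval of Mir125a held 0 (-0.02 to 0.06), as it did with DESeq2's size factors (-0.03 to 0.04). Relative to the median of all genes, Mir125b-1 lay 1.18 higher, Mir125b-2 0.94, Mir99a 0.79, Mir100 0.76, Gm25927 antisense 0.56 and Mir99b 0.44. Of the 250 genes, 3 had a larger ratio than Mir125b-1 and 125 a larger one than Mir125a. The biological coefficient of variation, from edgeR's common dispersion over the 348 detected gene rows, was 0.303. The pools differed in the number of embryos and the libraries in the share of unmapped reads, and the part of either in these ratios was not tested.

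**Figure D5:**
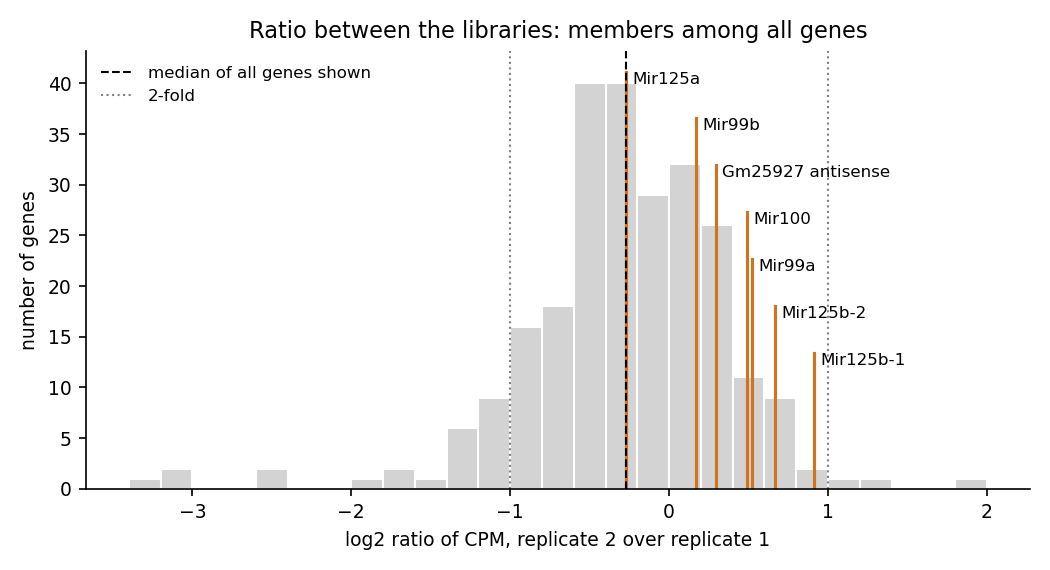
Number of genes by log2 ratio of CPM, replicate 2 over replicate 1, for the 250 genes with a mean count of 100 or more (grey), with the 7 members as lines, the median of all genes dashed and 2-fold dotted. Mir125a lies at the median of -0.27 and the other members lie to its right, up to 0.91 for Mir125b-1.

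Genes of similar mature sequence or with the same seed were compared with the members. Mir10a and Mir10b, which lie among the Hox genes, have 5p strands with an extra base near the 5′ end that shifts the seed to ACCCUGU.
Mir10a 5p: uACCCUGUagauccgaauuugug
Mir10b 5p: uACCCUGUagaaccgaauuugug
The Mir10a strand is 3 edits from that of Mir100 and the Mir10b strand 4. Together both exceeded the 3 Mir99 and Mir100 genes 2.80-fold in replicate 1 and 1.56-fold in replicate 2, a log2 ratio of 1.06 ± 0.60. Mir10a and Mir10b had log2 ratios between the libraries of -0.31 and -0.58 by the sense total, beside a median of -0.27 over the 250 genes. Mir99a, Mir99b and Mir100 were all above 0, as were 33.2% of those genes.

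Mir351 on chromosome X carries the Mir125 seed with a different 3′ part.
Mir351 5p: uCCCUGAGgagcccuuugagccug
It had 19022 counts (5311 CPM) in replicate 1 and 15663 (4379 CPM) in replicate 2, above Mir125a in both libraries. Its log2 ratio to the 3 Mir125 genes together was 0.32 (0.29 to 0.35) in replicate 1 and 0.00 (-0.03 to 0.03) in replicate 2, a comparison that again lacks the shared Mir125b reads. Mir351 had a log2 ratio between the libraries of -0.28, close to that of Mir125a and to the median of -0.27 over the 250 genes. The other genes with this seed, Mir6367 and Mir6394, had 0 counts in both libraries.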

How the data were processed

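Small RNA from 2 pools of embryonic day 10.5 mouse limb was counted by the submitters. Per the deposited readme texts, the deposited counts are raw read counts per gene on mm10 over the GENCODE M4 annotation, with replicates not pooled. For alignment, counting and trimming, tools and versions were not given in the sources used here. The 3 columns of a table hold both strands, sense and antisense counts, as seen from the values, and each adds up to 1 library total with the 4 rows of unassigned reads, a layout in which reads of several loci are given to no gene. Sense counts were used, and antisense counts for Gm25927. Those 4 rows stayed out of the totals: they held 64.4% of the reads in replicate 1 and 50.5% in replicate 2.

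Symbols, positions and hosts came from GENCODE M21 on GRCm38, which matched 1894 of the 1973 identifiers. CPM used the sense total of gene rows. Log2 ratios have a prior count of 1, and their intervals are exact conditional binomial intervals. The members and lists were chosen with earlier results of these data known. The genes named are the members, the let-7 genes of their loci, Mir10a, Mir10b, genes sharing a member's seed, and the genes next to each member in mean CPM. Other scalings, strands, prior counts, filters and locus definitions were tried, and each library was left out in turn. The computations, tested on simulated data, used Python 3.11.15 (scipy 1.17.1, pandas 2.3.3, numpy 2.4.6, matplotlib 3.10.9) and, for scaling factors and dispersion, edgeR 4.0.16 and DESeq2 1.42.0 in R 4.3.3.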

Additional observations from a re-analysis of the deposited data

How the results depend on the processing

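Of 104 values under alternative settings that use both libraries, 69 stayed within the margin set for them. The margin was the SD for levels, shares and ratios within a library, and the counting interval for ratios between the libraries. For counts of members it was a set fold. Some values could hardly move, such as ratios of high counts with a prior count of 5, so 69 is no measure of stability. Scaling to all mapped reads, a larger total, lowered the levels of all 7 members by 1.72-fold to 1.78-fold, for Mir99b from 22015 to 12540 CPM and for Mir125a from 3110 to 1752 CPM. Each scaling other than the sense total put 1 of 7 members, Mir125b-1, past 2-fold between the libraries in place of 0. The share of the 250 genes past 2-fold was 8.00% with each of these scalings and 10.8% by the sense total. The log2 ratio of Mir125a between the libraries changed sign, from -0.27 to 0.018 with TMM factors and 0.0045 with DESeq2's size factors, by the common shift of these scalings. The log2 ratio of the Mir99a locus to the Mir100 locus went from 1.10 to 1.23 with the Mir99 and Mir100 genes alone. Per base of hairpin, a setting chosen after seeing the data, it was 1.39, and that of Mir99a to Mir125b-2 was 6.74 in place of 6.61. With Mir99a and Mir100 summed against both Mir125b genes, the ratio of the sides was 4.66 in place of 3.57. With both strands counted, the Mir125 share was 0.423% in place of 0.431%. Detection of 7 members held at minimums of 1 and 100 counts, for which the share of all gene rows was not computed. With 2 libraries, leaving out 1 gives the value of the other, as printed in the report, and is no check of stability. No paired analysis was possible because there was 1 group. Depth did not limit the members, and the loss of reads shared by Mir125b-1 and Mir125b-2 was not measured.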
